A study of Mus musculus with 2 samples.

Results

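The genes described here carry the BMP and TGF-beta signals. They are 38 genes chosen by their role (ligands, receptors, Smads, antagonists and the Id targets), each read with every probe set that the platform annotation assigns to that gene alone. Of the 38, 37 have such a probe set, out of 18193 genes on the array, with 80 probe sets in all. Bmp3 has none in the annotation used and is not analysed here. A gene counted as measured when its brightest probe set reached the median signal of the array (178 in wild type, 177 in the null library) on at least 1 array, which held for 33 members. The comparison was between the cerebral cortex of 1 wild-type mouse embryo and that of 1 Sox11-null (Sox11 -/-) littermate at E17.5, late in gestation. Both came from a cross of Sox11 +/- parents on a mixed C57BL/6 and 129 background, and no allele or agent other than the Sox11 mutation is named for either. The allele is described no further in the labels.

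BMPs, TGF-betas and activins are secreted dimers that bring together type I and type II receptor kinases. The type I receptor then phosphorylates receptor Smads, and these enter the nucleus with Smad4. Among the genes described here, the receptor Smads are Smad1 and Smad5 in the BMP branch and Smad2 and Smad3 in the TGF-beta and activin branch. Secreted antagonists such as noggin and chordin hold the ligands back, and the Id genes are among the best known genes switched on by BMP signals. In the developing forebrain, BMPs from the dorsal midline pattern the cortex and induce the choroid plexus, and TGF-betas and BMPs are also made by the meninges, by vessels and by the skeleton of the head.

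Each genotype was 1 array of 1 embryo, so all differences below are differences between 2 libraries, with no replicate error and no test. They are given as log2 Sox11 null minus wild type, after a shift of the null array that set the median over all measured genes to 0, and were counted at 1.5-fold (0.58 on the log2 scale). All 6 Sox11 probe sets were lower in the null library, at 16.6% to 48.5% of the wild-type signal, and which of them lie in the deleted part is not known here. Xist, the RNA of the inactive X chromosome, gave 17505 on the wild-type array and 155 on the null array, so embryo sex and genotype cannot be told apart here. For the beta-actin control, 3' over 5' signal, a sign of RNA integrity, came to 1.78 on the wild-type and 1.16 on the null array, and for Gapdh to 0.922 and 0.816. Cortical neuron markers were present (5 of 5 with a probe set measured, summed signal 7399 and 6746), but so were markers of tissues outside the brain. Summed signals were 108963 and 108562 for 6 muscle markers, 37963 and 20420 for 6 epidermal markers (4 beyond 1.5-fold lower), 60420 and 33665 for 5 salivary gland markers (3 lower), and 4280 and 2622 for 4 tooth markers (3 lower). For 6 endothelial markers they were 3606 and 4261, with Pecam1, Cdh5 and Tie1 beyond 1.5-fold higher and none beyond it lower. Of the 6, 5 were above 0, while Cldn5, the brightest of them, was at 1547 and 1274 (-0.26). For 9 meningeal and fibroblast markers they were 103124 and 103032, with 1 higher. Markers of cartilage and bone (5 genes, 11316 and 10691, median difference -0.33, 1 lower) and of the choroid plexus (6 genes, 23509 and 19172, none beyond 1.5-fold), both sources of these ligands, were summed likewise. In radial glia (6 genes, 32177 and 31920) 1 was lower, and in microglia and macrophages (6 genes, 6068 and 6357) 1 was higher. None of the markers was at 0. Their part in the differences below was not tested, and in such bulk RNA fewer cells of a type and less RNA per cell cannot be told apart.

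The BMP type I receptor gene Bmpr1a was the member that stood beyond 1.5-fold in the null library. Of the 33 measured members 1 was beyond 1.5-fold higher (3.03%), against 3.07% of all 12390 measured genes, and none was lower, against 3.24% of all (6.3% of all genes either way). The members' share is thus near that of all genes. The other 32 members lay within 1.5-fold. The median difference was 0.040 over 11 measured ligands, -0.12 over 10 receptors, -0.16 over 7 Smads, 0.10 over 2 antagonists and 0.054 over 2 Id targets. The ligands ran from -0.34 to 0.55 and the receptors from -0.52 to 0.79, while the Smads lay between -0.24 and 0.017, inside the range of both. The groups therefore overlap, and with 1 array per genotype no difference between groups could be tested. The ligand median was below 0 under quantile normalization (-0.026) or after removal of a loess trend on level (-0.014). It stayed above the median of all measured genes there (-0.031 and -0.025). The receptor median was above 0 when each gene was the mean of its probe sets with the floor set on each (0.13 over the same 10 genes). All measured genes had a median of 0.031 in that setting.

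**Figure D1:**
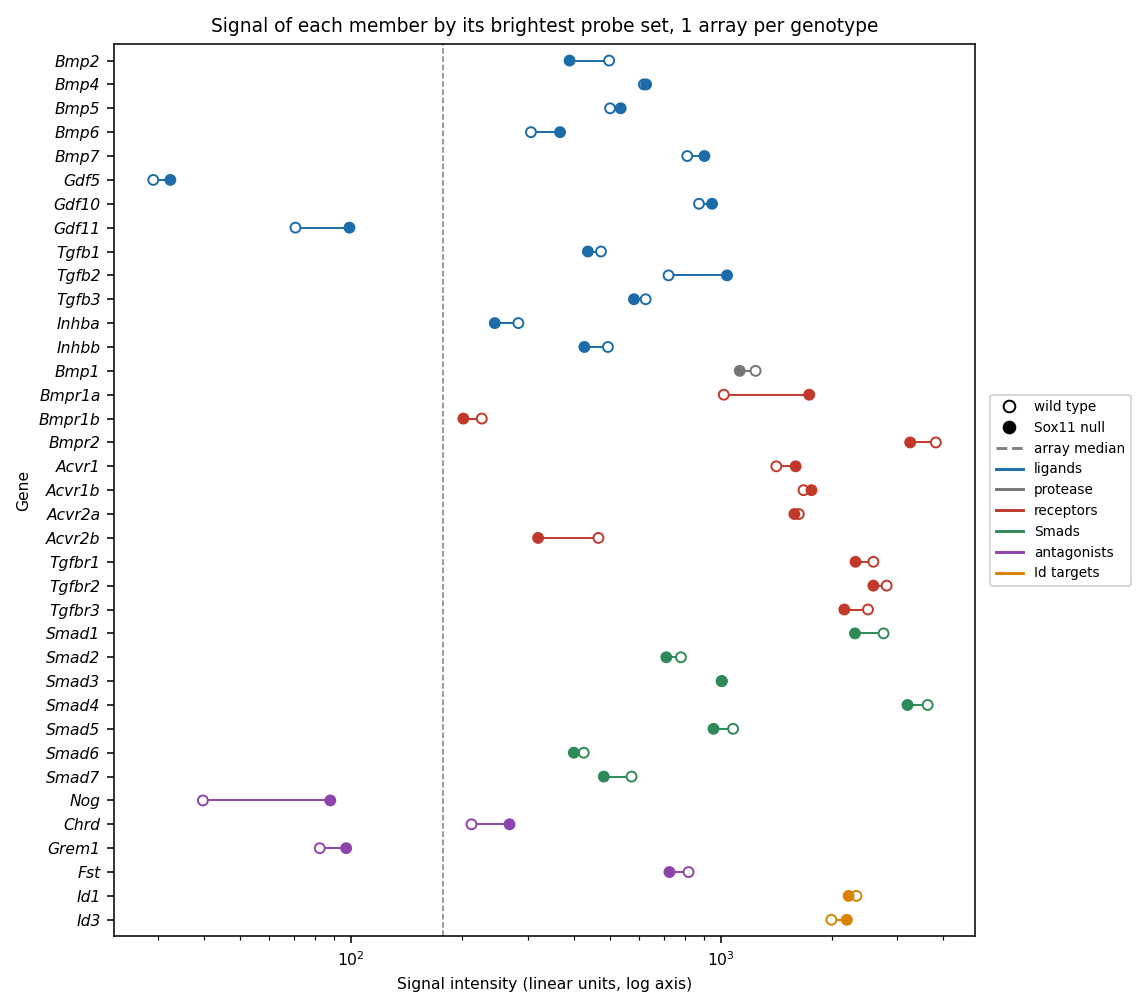
Signal intensity (log axis) of the 37 members with a probe set, by the brightest probe set of each gene, in wild type (open) and Sox11 null (filled), 1 array each. Most pairs lie close together, Bmpr1a has the widest gap among the measured members, and Gdf5, Gdf11, Nog and Grem1 lie left of the dashed array median on both arrays.

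**Figure D2:**
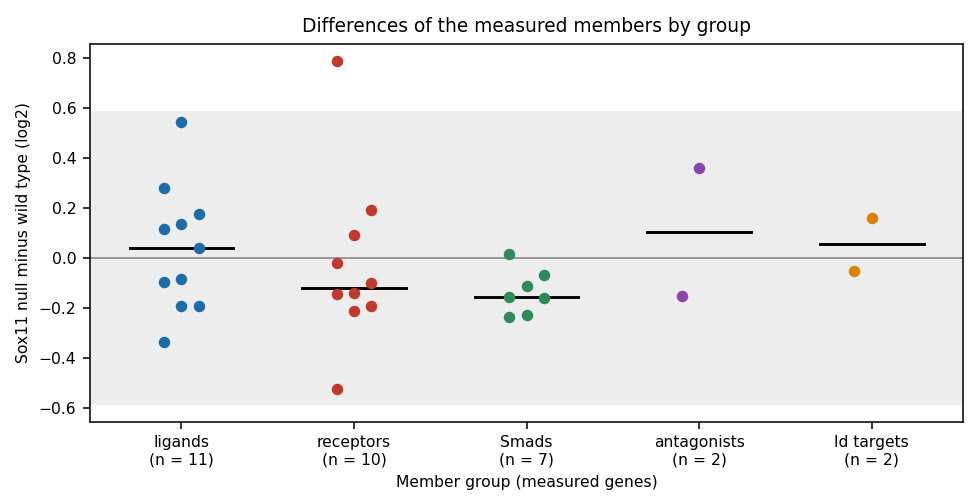
Log2 differences (Sox11 null minus wild type) of the measured members by group, 1 point per gene, with the group median as a bar and the range within 1.5-fold shaded. The 7 Smads lie between -0.24 and 0.017, and Bmpr1a at 0.79 is the point outside the shaded range. Bmp1, a protease, is in none of these groups.

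Among the BMP ligands, which signal through Smad1 and Smad5, no measured gene was beyond 1.5-fold. Bmp2 was at 499 on the wild-type and 390 on the null array, the order kept for all pairs of signals below (-0.34), which is the lowest difference of the ligands. Bmp4, which patterns the dorsal midline, was at 619 and 628 (0.040). With quantile or loess normalization Bmp4 was below 0, though above the median of all measured genes there. Bmp6 was at 306 and 367 (0.28). The brightest probe set of Bmp7, a ligand made by the choroid plexus and meninges, was at 811 and 903 (0.17) and its other measured probe set at 187 and 217 (0.23), so both were slightly higher in the null library. For Bmp5 the signs parted, with 502 and 536 (0.12) by one probe set and 200 and 181 (-0.13) by the other. Gdf10, a divergent ligand related to Bmp3 that is not counted to the BMP branch below, was at 873 and 947 (0.14). Gdf5, known from joint formation, stayed under the 25th percentile of both arrays (29.1 and 32.4), so no fold is given.

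Of the TGF-betas, Tgfb2 was higher in the null library with 3 of its 4 measured probe sets. Its brightest probe set, 1450923_at, was at 722 and 1039 (0.55, 1.46-fold), just inside 1.5-fold, and 1450922_a_at was at 643 and 992 (0.65, 1.56-fold), just outside it. The third, 1438303_at, was at 227 and 317 (0.50). The fourth, 1423250_a_at, did not share this, with 412 and 403 (-0.010). The mean over the 4 was 0.42 ± 0.29 (SD between probe sets, which share both RNA samples). The other TGF-beta genes were close to equal, with Tgfb1 at 474 and 437 (-0.098) and Tgfb3 at 626 and 582 (-0.086). Inhba and Inhbb encode the subunits of activins. Inhba was at 283 and 245 (-0.19). Inhbb was at 495 and 427 (-0.19) by its brightest probe set but at 211 and 301 (0.53) by its other one. Gdf11, a ligand that signals through activin receptors, was at 70.7 and 98.9, under the median of both arrays. Bmp1, despite its name a metalloprotease that cleaves chordin and procollagen, was at 1242 and 1125 (-0.12).

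Bmpr1a was higher in the null library with all 4 of its measured probe sets. The brightest, 1425492_at, was at 1019 and 1734, a log2 difference of 0.79 (1.73-fold). The others were at 217 and 530 (1425493_at, 1.31, 2.47-fold), 223 and 429 (1425494_s_at, 0.96, 1.95-fold) and 292 and 411 (1425491_at, 0.51, 1.43-fold). Their mean was 0.89 ± 0.33 (SD between the 4 probe sets). Among genes of its level, the highest of 3 equal groups, the central 95% of differences ran from -0.46 to 0.45. Bmpr1a is named here because its difference is the highest of the members, so its place outside this range is description only. The other measured members lay inside the range of their level. Of 5155 genes with several measured probe sets, 0.795% had all of them at 0.5 or above, as Bmpr1a does. At least 3 probe sets beyond 1.5-fold higher were found in 6 of 736 genes with 4 or more measured ones (0.815%), and Bmpr1a was 1 of the 6. Both criteria were set after its values were seen, so these shares describe the gene and test nothing. Its remaining probe sets were under the array median (132 and 147, 12.9 and 7.06), the last under the floor on both arrays. With all 6 averaged the difference was 0.63 with the floor set on each and 0.45, within 1.5-fold, without it.

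The other receptor genes were within 1.5-fold by their brightest probe sets. Acvr2b, an activin type II receptor gene, was the lowest, at 467 and 320 (-0.52), just inside the limit. The other activin type II receptor gene, Acvr2a, was at 1625 and 1581 (-0.020). Of the BMP receptors, the type I receptor genes Bmpr1b and Acvr1 were at 226 and 201 (-0.15) and at 1413 and 1594 (0.19), and the type II receptor gene Bmpr2 was at 3817 and 3253 (-0.21). The activin type I receptor gene Acvr1b was at 1674 and 1760 (0.092). The TGF-beta receptors were each slightly lower in the null library, with the type I receptor gene Tgfbr1 at 2587 and 2314 (-0.14), the type II receptor gene Tgfbr2 at 2810 and 2586 (-0.10) and the co-receptor gene Tgfbr3, or betaglycan, at 2501 and 2158 (-0.19).

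Probe sets other than the brightest gave another picture for the receptors. Receptor genes had 8 such measured probe sets, and all 8 were above 0, with 4 beyond 1.5-fold higher. Of the 8, 3 belong to Bmpr1a, and those of Tgfbr1 and Bmpr2 reached the array median on the null array alone. By mean level over both arrays 7 would count, 3 of them beyond 1.5-fold. Acvr1 was at 298 and 555 by its second probe set (0.92, 1.89-fold) and Tgfbr1 at 84.1 and 192 (1.21, 2.32-fold). Tgfbr3 (186 and 250, 0.45), Acvr2a (229 and 295, 0.39) and Bmpr2 (162 and 205, 0.36) were higher within 1.5-fold. In Tgfbr1, Tgfbr3, Acvr2a and Bmpr2 the brightest probe set was below 0, so the sign depends on the probe set. The same lean was present across the array. Of 8279 measured probe sets that were not the brightest of their gene, 13.5% were beyond 1.5-fold higher, 3.84% lower and 59.7% above 0, while genes by their brightest probe set were even at 3.07% and 3.24%. Over all members 7 of 23 such probe sets (30.4%) passed 1.5-fold upwards and none passed it downwards. Of the 23, 4 (of Tgfbr1, Bmpr2, Smad1 and Smad7) counted as measured through the null array alone. With a filter on the mean level over both arrays, added after seeing the data, it was 5 of 21 members' probe sets (23.8%), against 11.3% of 7669 over all genes and 2.83% lower. The 3 Bmpr1a probe sets are in both member counts, those at 1.31 and 0.96 among the ones beyond 1.5-fold. Probe sets of 1 gene are not independent of each other. The 3' to 5' ratios given above also differed between the libraries, and their part in this lean was not tested.

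**Figure D3:**
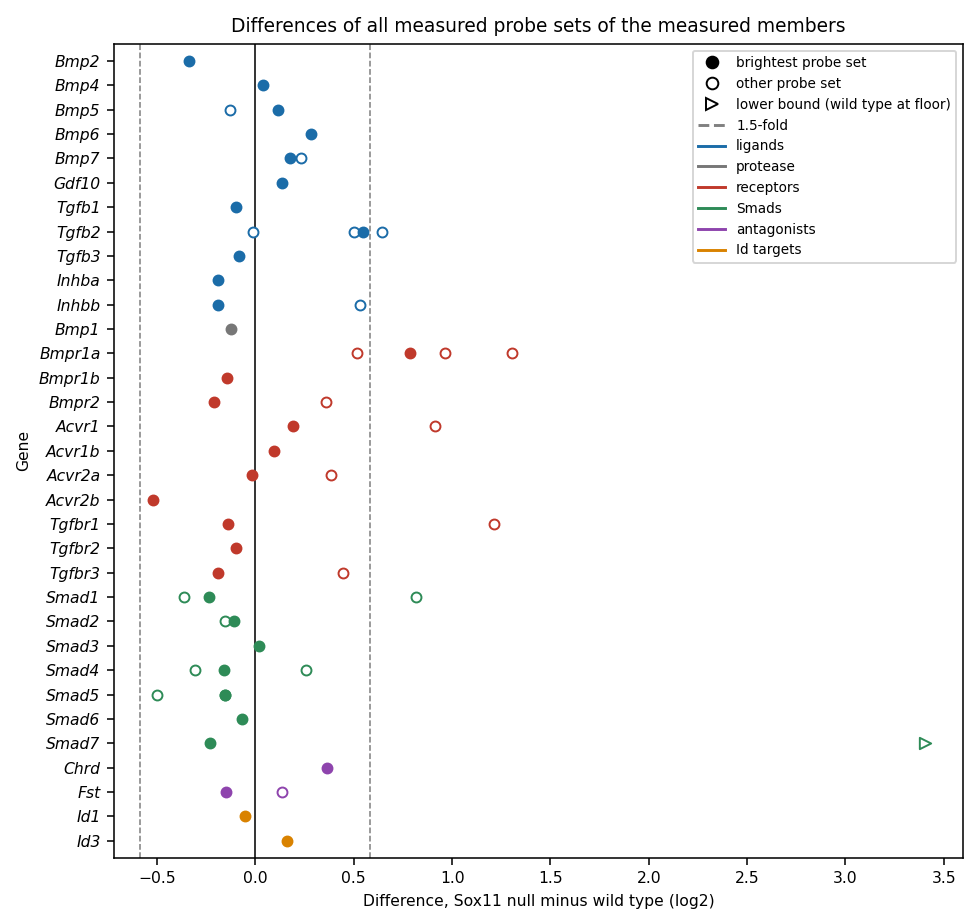
Log2 differences (Sox11 null minus wild type) of all measured probe sets of the 33 measured members, with the brightest probe set of each gene filled, the others open and the limits of 1.5-fold dashed. All open points of the receptor genes lie right of 0, and a Smad7 probe set lies far to the right as a lower bound.

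The receptor Smads and Smad4 were slightly lower in the null library by their brightest probe sets, except Smad3. In the BMP branch, Smad1 was at 2756 and 2306 (-0.24) and Smad5 at 1079 and 955 (-0.16). In the TGF-beta and activin branch, Smad2 was at 780 and 712 (-0.11) and Smad3 at 1007 and 1005 (0.017). With the other scalings Smad3 was at -0.037 to -0.0031, where the median of all measured genes was -0.031 to -0.020. The common partner Smad4 was at 3628 and 3199 (-0.16). The inhibitory Smads, which BMP and TGF-beta signals switch on as feedback, were at 426 and 400 for Smad6 (-0.070) and 573 and 482 for Smad7 (-0.23). Thus 6 of 7 Smads were below 0, against 50% of all measured genes by the centring. Below 0 were also 7 of 10 receptors (70%) and 21 of all 33 measured members (63.6%), but 5 of 11 ligands (45.5%).

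Further probe sets of the Smads did not all share these signs. Both other probe sets of Smad5 (-0.50 and -0.16) and the other one of Smad2 (-0.15) were below 0 too. Smad1 had one at -0.36 (1716 and 1316) and one at 0.82 (174 and 303), and Smad4 one at -0.31 and one at 0.26. The Smad7 probe set 1443771_x_at was at 15.5, under the floor, and at 552, which is at least 10.6-fold higher, while the brightest Smad7 probe set was lower in the null library. Probe sets of the _x_at type can bind transcripts of other genes.

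**Figure D4:**
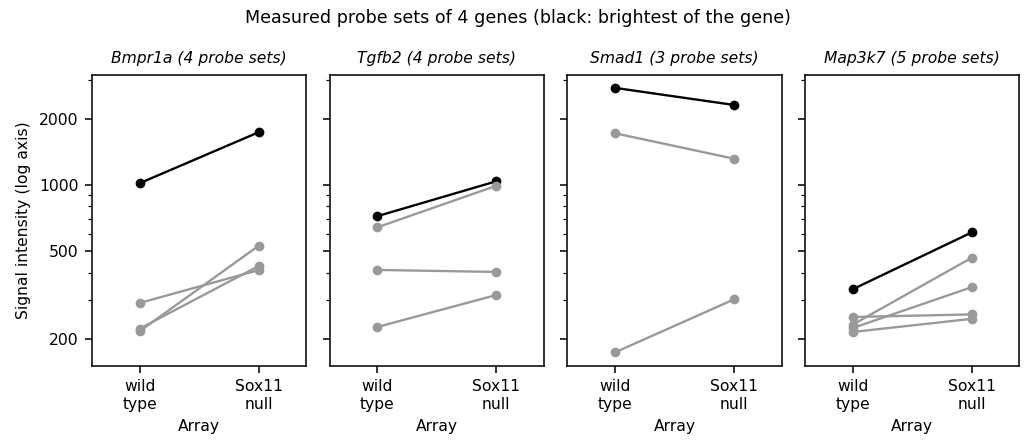
Signal intensity (log axis) of each measured probe set of Bmpr1a, Tgfb2, Smad1 and the pathway kinase gene Map3k7 on the wild-type and the Sox11-null array, joined by a line, with the brightest probe set of the gene in black. All Bmpr1a and Map3k7 lines go up, 1 of 4 Tgfb2 lines is level, and the Smad1 lines part.

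Over 16 members with several measured probe sets, all probe sets were above 0 in 3 (Acvr1, Bmp7 and Bmpr1a, 18.8%, against 26.4% of all genes with several) and below 0 in 2 (Smad2 and Smad5). In the other 11 (68.8%) the signs were mixed, against 56.8% of 5155 genes with several. In Tgfbr1, Bmpr2, Smad1 and Smad7 they were mixed only through a probe set that counted as measured through the null array alone. Entry through the null array alone favours a positive sign, and entry through wild type alone a negative one. Over all genes, 710 of the 8279 probe sets entered through the null array alone and 428 through wild type alone. Of the members' 23 such probe sets these were 4 and 0. The shares of mixed signs are thus description only. The median span between the highest and the lowest probe set of a member was 0.60, against 0.41 over all such genes. It includes the spans of Smad7 (3.63), Tgfbr1 (1.35), Smad1 (1.18) and Bmpr2 (0.57), which rest on those same probe sets. By their brightest probe sets, 32 of the 33 measured members differed between the arrays by less than the median span of 0.60.

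Of the antagonists, chordin (Chrd) was at 212 and 268 (0.36) and follistatin (Fst), which binds activins, at 818 and 726 (-0.15) with 0.13 by its other probe set. The BMP antagonist genes Nog and Grem1 were under the median of both arrays, at 39.7 and 87.8 and at 82.2 and 96.9. The measured antagonists thus differed in sign and stayed within 1.5-fold.

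The targets Id1 and Id3, which encode inhibitors of basic helix-loop-helix factors, were close to equal in the libraries. Id1 was at 2328 and 2217 (-0.051) and Id3 at 1991 and 2192 (0.16), each with its only probe set. Their signs were opposite and neither was near 1.5-fold. A split of receptors, ligands and receptor Smads by branch, made after the values were seen, left out Gdf10 and the type II receptor genes Acvr2a and Acvr2b, which serve ligands of both branches. It gave a median of 0.040 over 11 measured genes of the BMP branch and -0.10 over 11 of the TGF-beta and activin branch. The BMP genes ran from -0.34 to 0.79 and the TGF-beta and activin genes from -0.19 to 0.55, so these too overlap. Acvr2b (-0.52), left out here, lies below both ranges.

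Upstream sequence is shown for the receptor and the ligand with the highest differences and for an Id target. Each is the 250 bases before the start of the gene in RefSeq (GRCm38.p6), 5' to 3' on the strand of the gene, with capitals marking matches on either strand to GGCGCC (a GC-rich Smad element), CAGAC (a Smad-binding element) or the Sox cores ACAAAG and ACAATG. Bmpr1a lies at chr14:34502547-34502796 (minus strand), Tgfb2 at chr1:186705990-186706239 (minus strand) and Id3 at chr4:136143572-136143821 (plus strand).
Bmpr1a: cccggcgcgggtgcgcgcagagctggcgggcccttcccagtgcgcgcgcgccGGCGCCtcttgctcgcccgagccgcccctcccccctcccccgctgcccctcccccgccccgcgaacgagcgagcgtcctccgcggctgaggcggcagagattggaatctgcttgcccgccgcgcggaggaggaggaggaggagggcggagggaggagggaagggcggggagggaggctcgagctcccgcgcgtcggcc
Tgfb2: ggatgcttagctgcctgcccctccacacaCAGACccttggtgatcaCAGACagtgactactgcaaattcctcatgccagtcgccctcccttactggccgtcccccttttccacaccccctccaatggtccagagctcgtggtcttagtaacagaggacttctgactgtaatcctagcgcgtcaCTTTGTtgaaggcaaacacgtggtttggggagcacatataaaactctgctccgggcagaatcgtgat
Id3: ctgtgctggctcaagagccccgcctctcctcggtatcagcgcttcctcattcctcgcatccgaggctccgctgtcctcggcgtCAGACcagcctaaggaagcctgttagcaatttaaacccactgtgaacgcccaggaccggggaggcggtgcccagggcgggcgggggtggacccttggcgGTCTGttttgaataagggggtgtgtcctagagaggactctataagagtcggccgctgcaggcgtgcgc
The Bmpr1a window, with 78.8% G and C, held 1 GGCGCC, which starts 198 bases before the gene. The Tgfb2 window, with 53.6%, held CAGAC at 221 and 204 bases and ACAAAG on the opposite strand (written CTTTGT) at 67 bases before the gene. The Id3 window held CAGAC at 167 bases and, on the opposite strand as GTCTG, at 68 bases. RefSeq windows were matched for 25 members (30 windows, some genes having several). GGCGCC was in 6 of the 30 (20%), against 9.59% of all 32851 windows of this length, CAGAC in 13 (43.3%, against 42.2%), ACAAAG in 10 (33.3%, against 16.5%) and ACAATG in 1 (3.33%, against 10.7%). Counted by gene, since windows of 1 gene can overlap, ACAAAG was in 7 of 25 members (28%, against 18.6% of 27025 genes) and GGCGCC in 6 (24%, against 10.8%). By gene CAGAC was in 12 (48%, against 45.8%) and ACAATG in 1 (4%, against 12.2%). The median G and C content was 67.4% in the members' windows and 52.4% in all. These motifs do not overlap one another in the windows shown, and a match is a stretch of letters, not a shown binding site.

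Of a further 70 genes of the pathway, 61 had a probe set and 43 were measured, with a median difference of 0.063. It was 0.0060 with quantile normalization, where that of all measured genes was -0.031. Beyond 1.5-fold, 3 of the 43 were higher and 1 was lower, against 3.07% and 3.24% of all measured genes, and 25 were above 0. Map3k7, which encodes the kinase TAK1 of the Smad-independent arm, was higher in the null library with 337 and 609 (0.88, 1.83-fold) by its brightest probe set. Its other 4 measured probe sets were at 1.03, 0.63, 0.22 and 0.059, so all 5 were above 0 and 3 were beyond 1.5-fold. With Bmpr1a it was among the 6 genes described above. Rgma, a BMP co-receptor gene of the repulsive guidance family, was at 177 and 303 (0.80) and Gdf2, which encodes a ligand of endothelial receptors, at 155 and 238 (0.64), both with a single probe set that reached the array median on the null array alone. Acvr1c, an activin-type type I receptor gene, was lower, at 180 and 113 (-0.65), and reached it in wild type alone.

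The endothelial receptor genes of the pathway were within 1.5-fold. Acvrl1 was at 242 and 265 (0.15, with -0.17 by its other probe set) and Eng at 608 and 704 (0.23). No antagonist or ligand-binding gene of the further list (16 measured) was beyond 1.5-fold by its brightest probe set. The widest were Chrdl1 at 366 and 278 (-0.38, with -0.13 and 0.54 by its other measured probe sets) and Nbl1 at 324 and 405 (0.34). Of 10 other measured probe sets of this list 2 were beyond 1.5-fold higher and 0 lower. They were of Crim1 (68.4 and 200, 1.57, measured through the null array alone) and of Twsg1 (277 and 620, 1.18). By their brightest probe sets 7 further target genes were within 1.5-fold too, with Hey1 at 486 and 618 (0.37) and Id4 at 3518 and 2813 (-0.30). Id2 was at 4856 and 5010 (0.065) by its brightest probe set, while its others gave -0.42 and -1.12.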

How the data were processed

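Total RNA of 1 wild-type and 1 Sox11-null embryonic cortex was labelled as biotinylated cRNA and hybridised to 1 Affymetrix mouse array each, per the labels' protocols. The deposited values are linear signal intensities per probe set, made with Affymetrix Expression Console per the submitters' processing notes. Not given in the sources used here are the summary algorithm and any filter.

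Of 45101 probe sets, 64 controls were left out, and 34945 named exactly 1 gene in the platform annotation. A RefSeq table (GRCm38.p6) gave current symbols by gene number. From these, log2 signals were computed, the median difference of measured genes was set to 0 by moving the null array (shift -0.020), and a floor was set at each array's 25th percentile (52.9 and 52.5). A gene was represented by its probe set of highest mean log2 signal.

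With 1 array per genotype no test was possible, and genes were counted at 1.5-fold. Members and lists were chosen with earlier results of these data known, as was the 1.5-fold size. All members are named with their values. Of the other pathway genes, those beyond 1.5-fold are named, or the 2 with the largest differences in a list where none was. Alternatives were the centring, quantile and loess normalization, the floor, the filter and the choice of probe sets. The scripts (Python 3.11.15, pandas 2.3.3, statsmodels 0.14.6) were tested on simulated data. Depth does not apply to arrays, whose number limits the precision.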

Additional observations from a re-analysis of the deposited data

How the results depend on the processing

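Bmpr1a was at 0.75 to 0.77 with the other scalings. The floor, the filter and the leaving out of probe set types keep its brightest probe set, so they could not test it. With all 6 of its probe sets averaged it was at 0.45, where a probe set under the floor on both arrays enters without the floor, and at 0.63 with the floor set on each, a setting added after seeing the data. The number of members beyond 1.5-fold higher was 1, and 2 when dim genes were kept too, which adds Nog, and was 2 with all probe sets averaged, where Bmp7 and Smad7 took the place of Bmpr1a through 1 probe set each (1432410_a_at and 1443771_x_at), both under the floor in wild type. With the floor set on each the 2 were Bmpr1a and Smad7 (1.59), and Bmp7 was at 0.52. No member was beyond 1.5-fold lower in any setting. With all probe sets averaged the median of the receptors was 0.15 and that of the members 0.096, but over 7 and 28 genes, since fewer count as measured, whose medians by brightest probe sets were -0.020 and -0.078. Over the same 10 and 33 genes, with the floor on each probe set, they were 0.13 and 0.073, against -0.12 and -0.098 by the brightest. All measured genes had a median of 0.031 in that setting, against 0 by the brightest, so part of this rise is shared by all genes. The other medians moved by less than the pooled SD between probe sets of a gene (0.39) divided by the square root of the number of genes. The median of the Smads ran from -0.18 to -0.070 and stayed below 0 in all settings. The floor and the filter keep the brightest probe sets of the Smads, so they test this little. With all probe sets averaged the Smad median was -0.11 over 6 genes, and -0.070 over 7 with the floor set on each. The median of the ligands ran from -0.026 to 0.14, and that of the antagonists, over 1 to 4 genes, from -0.15 to 0.31. The ligand value of -0.026, with quantile normalization, lay above the median of all measured genes in that setting (-0.031). No paired analysis was possible because each genotype has 1 array, and for the same reason no array could be left out. With no replicates, none of these values has an error between embryos.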

Other observations

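Several probe sets of the members that stayed under the array median on both arrays were further apart between the arrays than the brighter probe sets of their genes. The Bmp7 probe set 1432410_a_at was at 14.0 on the wild-type and 116 on the null array, the Bmp5 probe set 1421282_at at 49.3 and 102, and the Bmp1 probe set 1427457_a_at at 90.5 and 160. The antagonist gene Nog, with its only probe set, was at 39.7 and 87.8. The wild-type signals of these Bmp7, Bmp5 and Nog probe sets were under the floor. The Tgfbr2 probe set 1422019_at was lower on the null array, at 52.9 and 4.44, but under the floor on both, so no fold is given. All of these probe sets were picked after their values were seen, and none of them counted as measured.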
